A study of Mus musculus with 30 samples.

Results

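Potassium channels were read in heart, brain and kidney through 9 genes: Kcnk1, Kcnk3, Kcnj2, Kcnj3, Kcnd2, Kcnip2, Kcnq1, Kcnh2 and Kcna5. Every probe annotated to one of these symbols was taken, which gave 14 probes of the 25697 on the array and 9 genes of 16593. Kcnk1, Kcnk3, Kcnj2, Kcnj3, Kcnd2 and Kcna5 had 1 probe each, Kcnq1 had 2 (probe 1 and probe 2), and Kcnip2 and Kcnh2 had 3 (probes 1 to 3). The genes were chosen by their measured values in heart, read per array before brain and kidney. Heart values, between the 3 groups of mice and against the other tissues, are therefore described and not tested, while brain, kidney and the differences between brain and kidney are tested.

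Gene expression had been profiled on Illumina BeadChip arrays in the heart, brain and kidney of 10 male wild-type C57BL/6JRj mice, with 1 array per tissue and mouse and 30 arrays in all. The groups were 4 mice aged 25 months that had received rapamycin, 2 control mice aged 25 months and 4 control mice aged 25 weeks. Rapamycin mice and 25-week controls differ in both age and treatment, which their comparison cannot tell apart. Rapamycin, an inhibitor of mTOR complex 1, was started at 13 months and given for more than 12 months, and the labels describe random assignment of mice to rapamycin or vehicle. Whole-tissue RNA was used, so a change in the share of a cell type and a change within cells cannot be told apart. Sample titles mark the 25-month controls as young, against their source and age labels, which were followed here. C4b, a complement gene known to rise with age in mouse tissue, was higher in the 25-month controls than in the 25-week controls by 1.95 ± 0.22 in heart and 2.23 ± 0.12 in brain (log2, SE). In kidney the difference was 1.57 ± 0.54 with all arrays, which did not pass (limma, adjusted p = 0.534), and 1.57 ± 0.29 without the array of rapamycin mouse 2 (adjusted p = 0.00931).

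Potassium channels let potassium leave the cell and so set the resting voltage and end the action potential. Two-pore-domain channels such as Kcnk1 (TWIK-1) and Kcnk3 (TASK-1) carry background currents, and inward rectifiers such as Kcnj2 (Kir2.1) hold the resting voltage of ventricular muscle. Kcnj3 (GIRK1) forms the acetylcholine-gated channel of the atrium and also works in neurons. The voltage-gated channels Kcnd2 (Kv4.2), Kcna5 (Kv1.5), Kcnh2 (ERG) and Kcnq1 repolarise the cell, and Kcnip2 (KChIP2) is the accessory subunit that brings Kv4 channels to the membrane. In kidney, potassium channels also recycle and secrete potassium along the tubule.

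Values are log2 normalised intensities, background-corrected and quantile-normalised, and differences are log2 differences with the standard error of the limma fit. A fold is 2 raised to the difference. Corrected intensities carry an added offset of 16, so values of about 5 or less lie near background and differences of low probes are understated. Detection means a deposited detection p-value under 0.05, and a probe was tested where it was detected on at least 2 arrays of the tissue. A probe was called where its limma p, adjusted by Benjamini-Hochberg across every probe tested in that tissue, was under 0.05. Per array, 11923 to 12686 probes were detected in heart, 12975 to 13562 in brain and 9989 to 12777 in kidney. The lowest count belonged to the kidney of rapamycin mouse 2, whose median correlation with the other kidney arrays was 0.859, so kidney results are also given for the other 9 arrays. Defining markers were high in the labelled tissue, with Myl2 and Nppa high in heart, Gfap and Ttr in brain, and Slc34a1 and Umod in kidney. Weaker signals also appeared elsewhere. Slc34a1 was detected in the hearts of rapamycin mice 2 (6.33) and 4 (4.85), and Myl2 and Nppa were detected in every brain. Of the 14 probes, 13 were tested in heart, 13 in brain and 5 in kidney. Kcnq1 probe 1 was left out in heart and Kcnq1 probe 2 in brain, and in kidney the tested probes were those of Kcnk1, Kcnk3, Kcnj2, Kcnq1 probe 2 and Kcnh2 probe 3.

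Of the 9 genes, 7 had an entry in the RefSeq promoter table of build GRCm38.p6, which holds 250 bases before and 50 after each start, and Kcnk3 and Kcnq1 are named only. The promoters of Kcnk1, the member with the widest spread between age groups in heart, and of Kcnh2, a heart-enriched member with a much richer content of G and C, are shown for comparison. Capitals mark CG dinucleotides. Kcnk1 lies at chr8:125994852-125995151 on the plus strand and Kcnh2 at chr5:24329542-24329841 on the minus strand.
Kcnk1: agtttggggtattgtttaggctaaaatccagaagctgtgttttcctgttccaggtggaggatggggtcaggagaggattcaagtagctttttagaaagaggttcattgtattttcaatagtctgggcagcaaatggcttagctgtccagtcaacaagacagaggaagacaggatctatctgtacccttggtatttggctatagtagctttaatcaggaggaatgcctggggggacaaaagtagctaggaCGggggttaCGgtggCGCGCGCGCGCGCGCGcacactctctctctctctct
Kcnh2: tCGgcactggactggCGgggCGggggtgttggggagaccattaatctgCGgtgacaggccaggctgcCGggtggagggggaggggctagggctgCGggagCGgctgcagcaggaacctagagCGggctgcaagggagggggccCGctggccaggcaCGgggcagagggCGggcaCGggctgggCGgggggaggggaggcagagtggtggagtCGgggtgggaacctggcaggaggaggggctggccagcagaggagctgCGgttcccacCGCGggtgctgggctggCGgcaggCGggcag
The Kcnk1 promoter had 49% G and C and 10 CG dinucleotides, most of them in a repeat at its 3′ end, and the Kcnh2 promoter had 74.3% and 19. Over all 32851 promoters the medians were 52.7% and 7. The GC box GGGCGG, searched on both strands, occurred 3 times in the Kcnh2 promoter and 0 times in that of Kcnk1, and 35.7% of all promoters held it. It was also found in the promoters of Kcnj2 (2), Kcnj3 (1), Kcnd2 (1) and Kcnip2 (2), but not in that of Kcna5. TATAAA, on both strands, was found in none of the 7 promoters, against 13.6% of all promoters. CCAAT was found in those of Kcnj2 (1), Kcnj3 (1) and Kcnip2 (2), against 37.4% of all, and CACGTG in that of Kcnj2 alone, against 7.15%. These matches describe letters in the windows and say nothing of binding.

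In heart, Kcnk1 separated the 3 groups of mice completely. Its level was 6.44, 6.54, 6.05 and 6.38 in rapamycin hearts, 6.97 and 6.71 in 25-month control hearts, and 4.84, 4.98, 4.81 and 5.17 in 25-week control hearts. Both older groups lay well above the 25-week controls, and every rapamycin heart lay below both 25-month controls. The difference was 1.40 ± 0.13 for rapamycin minus 25-week controls, a 2.64-fold difference, and 1.89 ± 0.16 for 25-month minus 25-week controls, a 3.71-fold difference. Rapamycin minus 25-month controls was -0.49 ± 0.16, or 0.712-fold. By size, among the 13773 probes tested in heart, the Kcnk1 differences ranked 19, 16 and 630 for these comparisons in the order given. The deposited intensities before correction were 172.2 to 212.7 in rapamycin hearts, 192.6 and 235.7 in 25-month controls and 121.8 to 131.7 in 25-week controls. One 25-week control heart was below the detection limit, and the other 9 hearts were above it. The heart of rapamycin mouse 2, the highest rapamycin heart for Kcnk1 (6.54), also had the kidney marker Slc34a1 detected, at 6.33. The part of kidney signal in the heart Kcnk1 values was not tested. Leaving out each mouse in turn gave 1.34 to 1.49 for rapamycin minus 25-week controls. Without background correction, the differences shrank to 0.49 for rapamycin minus 25-week controls, 0.73 for 25-month minus 25-week controls and -0.24 for rapamycin minus 25-month controls.

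**Figure D1:**
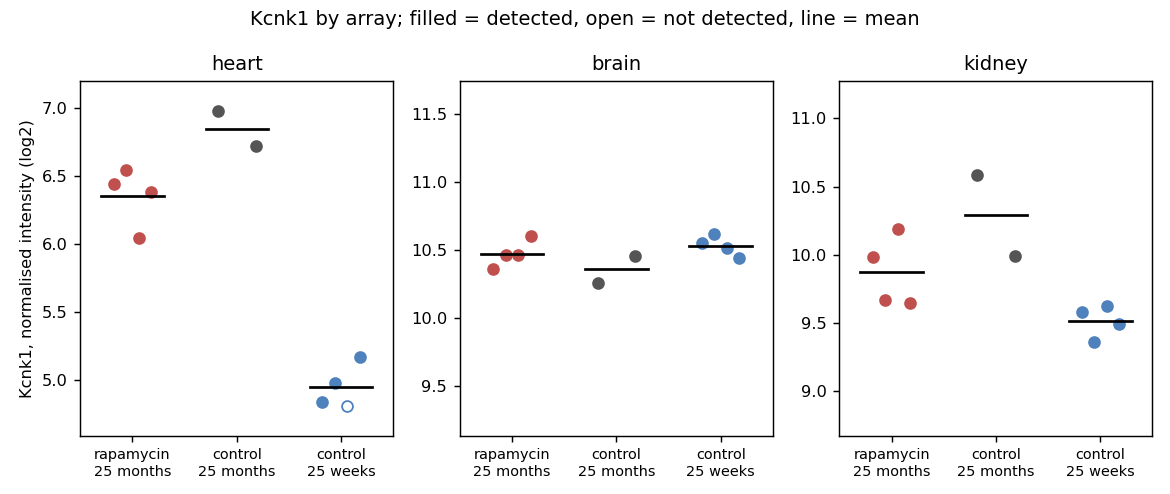
Kcnk1 per array as log2 normalised intensity in heart, brain and kidney, with rapamycin mice, 25-month controls and 25-week controls from left to right, the line at the group mean, open circles for arrays without detection and the same height of scale in each panel. In heart the 25-week controls lie at 4.81 to 5.17, below all 6 older mice; in brain the groups overlap.

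Across the heart probes of the members as a whole, 0, 1 and 1 of 13 passed the threshold for rapamycin minus 25-month controls, rapamycin minus 25-week controls and 25-month minus 25-week controls, the call in each case being Kcnk1. Over all heart probes 0%, 0.944% and 0.624% were called. Since heart values chose these genes, the counts are a description. The 2 groups compared did not overlap for 4, 1 and 7 of the 13 probes in these 3 comparisons, against 19.8%, 10.7% and 26.5% of all probes. The median difference of the 13 probes was 0.12, 0.12 and 0.03, against -0.0051, -0.0049 and -0.0091 over all probes.

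Kcnk3, the other two-pore-domain member, ran the opposite way to Kcnk1 in heart. It stood at 9.34, 9.20, 9.33 and 9.19 in rapamycin hearts, 8.53 and 9.12 in 25-month control hearts, and 9.29, 9.31, 9.51 and 9.42 in 25-week control hearts. Both 25-month controls lay below all other hearts, the first of them far below, and the rapamycin hearts overlapped the 25-week controls. Rapamycin minus 25-month controls was 0.44 ± 0.15 and 25-month minus 25-week controls -0.56 ± 0.15. Leaving out 25-month control mouse 1 gave 0.14 and -0.26, and leaving out mouse 2 gave 0.73 and -0.85.

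Markers of cells with their own potassium channels differed between the same hearts. The atrial list had 10 of 10 genes detected, with a summed level on the linear scale of 47820 to 62350 in rapamycin hearts, 41050 to 47690 in 25-month controls and 50830 to 56620 in 25-week controls. Myl7, the atrial myosin light chain, was 11.97 to 12.56 in rapamycin hearts, 10.94 and 11.56 in 25-month controls and 11.87 to 12.21 in 25-week controls. Both 25-month controls were lowest for Myl7, as for Kcnk3. Nppa, another gene of the atrial list, did not follow Myl7. It lay near the top of the scale in every heart, at 14.36 and 14.43 in the 25-month controls, the latter the highest of all hearts. Of the brown adipocyte list 5 of 8 genes on the array were detected, Dio2, Elovl3 and Zic1 were not, and the sums were 30850 to 32080, 24890 to 29520 and 31540 to 32330 in rapamycin, 25-month control and 25-week control hearts. Ucp1, the uncoupling protein that defines brown fat, was detected in all rapamycin hearts (6.11 to 7.97) and all 25-week controls (5.12 to 9.27) but in neither 25-month control. The summed list did not follow Ucp1, since it stayed at 31540 to 32330 across the 25-week controls. Cidea, also on the list, peaked at 10.14 on the log2 scale, a small part of the sum. The sum is therefore no measure of brown fat. The macrophage list had all 7 genes on the array detected, with sums of 3008 to 5546 in rapamycin hearts, 3304 to 4996 in 25-month controls and 1901 to 2487 in 25-week controls, so that its older and younger hearts did not overlap, as for Kcnk1. The ventricular sums were 103700 to 105300, 98480 to 103800 and 102800 to 103500 in the same order, with Myl2 near the top of the scale in every heart. The part of these cells in the Kcnk1 and Kcnk3 differences was not tested.

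Kcnip2, the Kv4 accessory subunit, leaned higher in the 25-month control hearts with all 3 of its probes. Probe 3, annotated to another transcript than the other 2, read 7.41, 7.03, 7.73 and 6.82 in rapamycin hearts, 7.86 and 7.36 in 25-month controls and 7.08, 7.07, 7.25 and 7.27 in 25-week controls. The 25-month controls lay above every 25-week control, while the rapamycin hearts spanned both. The differences for 25-month minus 25-week controls were 0.53 ± 0.17, 0.40 ± 0.15 and 0.44 ± 0.22 for probes 1, 2 and 3. For rapamycin minus 25-month controls they were -0.27 ± 0.17, -0.28 ± 0.15 and -0.36 ± 0.22, with overlapping groups. Probes 1 and 2 stood near background, between 4.51 and 5.51.

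The probes of Kcnh2, which carries the rapid delayed rectifier current in human heart, did not move together. Probe 1 was 7.51, 7.57, 7.83 and 7.68 in rapamycin hearts, 7.95 and 7.83 in 25-month controls and 7.57, 7.58, 7.51 and 7.63 in 25-week controls. Probe 3 was 8.70, 8.11, 8.81 and 8.11 in rapamycin hearts, 7.87 and 8.13 in 25-month controls and 8.11, 8.20, 8.24 and 8.29 in 25-week controls. The 25-month controls were thus the highest group on probe 1 and had the lowest mean on probe 3. For rapamycin minus 25-month controls the difference was -0.24 ± 0.12 on probe 1 and 0.43 ± 0.20 on probe 3, and for 25-month minus 25-week controls it was 0.32 ± 0.12 and -0.21 ± 0.20. Probe 2 stayed near background, at 4.51 to 5.07.

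The remaining cardiac members differed by less than Kcnk1 in each comparison. Kcna5, which carries an ultrarapid current in atrial muscle, was 6.14, 6.44, 6.33 and 6.59 in rapamycin hearts, 6.15 and 5.78 in 25-month controls and 6.38, 5.73, 6.04 and 6.15 in 25-week controls. Only 1 rapamycin heart fell within the range of the 25-month controls, and the differences were 0.41 ± 0.19 for rapamycin minus 25-month controls and 0.30 ± 0.15 for rapamycin minus 25-week controls. Kcnq1 probe 2, for the slow delayed rectifier subunit, was 6.85, 6.57, 7.02 and 6.57 in rapamycin hearts, 6.39 and 6.53 in 25-month controls and 6.49, 6.11, 6.57 and 6.55 in 25-week controls. All rapamycin hearts lay above both 25-month controls, by 0.29 ± 0.17 in the mean. Kcnj3 was 6.61, 6.37, 7.16 and 6.21 in rapamycin hearts, 6.41 and 6.44 in 25-month controls and 6.39, 5.94, 6.21 and 6.38 in 25-week controls. Rapamycin mouse 3 stood out there, and its heart was also the highest for Sln (13.25), an atrial marker, and for Myl7 (12.56). It was not the highest for the atrial marker Nppa (14.37). Kcnj2 ranged from 5.79 to 6.15 in rapamycin hearts, 5.66 to 5.85 in 25-month controls and 5.78 to 6.28 in 25-week controls, and Kcnd2 from 5.13 to 5.54, 5.42 to 5.48 and 5.46 to 5.97. Both sets overlapped in every comparison, with differences between -0.26 and 0.20.

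**Figure D2:**
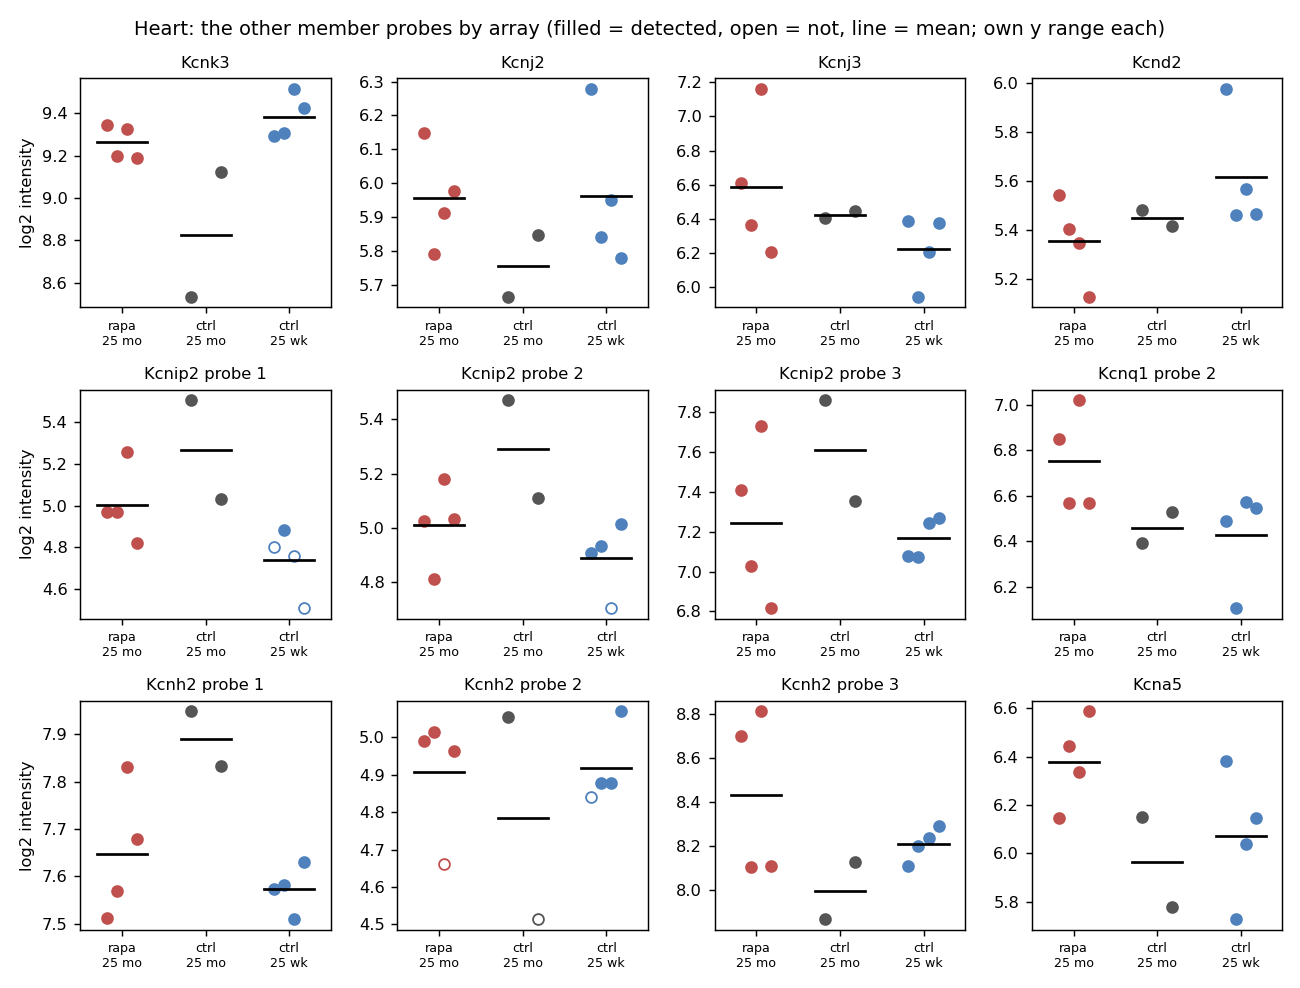
Heart arrays for the 12 tested probes other than Kcnk1, as log2 normalised intensity with a y range of its own per panel, rapamycin, 25-month control and 25-week control hearts from left to right, lines at the means and open circles for arrays without detection. The 2 control hearts at 25 months are the lowest for Kcnk3. They lie above the 25-week controls for all 3 Kcnip2 probes, Kcnh2 probe 1 and, only just, Kcnj3.

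By the root mean square difference of centred log2 values over the 10 heart arrays, the genes most like Kcnk1 were C4b (0.256), Cyp2b10 (0.282), Mmp3 (0.282), Skap2 (0.288) and Klk1b26 (0.311). The spread of Kcnk1 about its own mean was 0.804 on this measure, and the median distance of all probes from Kcnk1 was 0.830. C4b, a complement component, had 8.60 to 9.28 in rapamycin hearts, 9.06 and 9.73 in 25-month controls and 7.21 to 7.71 in 25-week controls. Mmp3, a matrix protease, had 7.32 to 7.67, 7.31 and 8.31, and 6.17 to 6.32 in the same groups. Klk1b26, a kallikrein, had 6.22 to 6.45 in rapamycin hearts, 7.07 and 7.65 in 25-month controls and 5.23 to 5.68 in 25-week controls. As with Kcnk1, the 3 groups did not overlap for Klk1b26 or for the adaptor gene Skap2 (9.04 to 9.16, 9.24 and 9.25, and 7.86 to 8.13 in the same order), whereas for C4b, Cyp2b10 and Mmp3 the rapamycin hearts overlapped the 25-month controls. These likenesses are a description over 10 arrays that share tissue and groups.

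**Figure D3:**
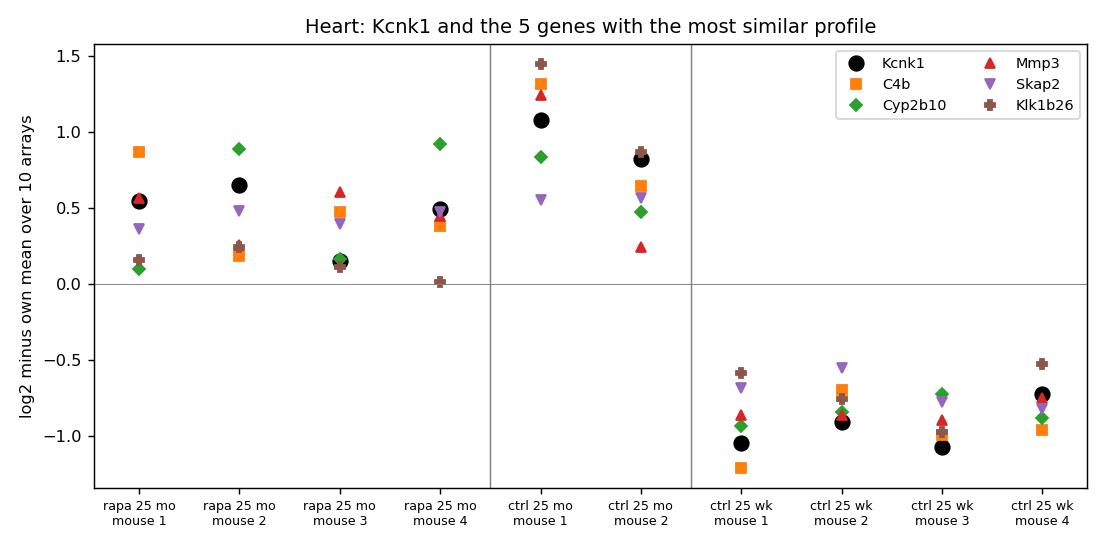
Log2 values of Kcnk1 (black) and the 5 genes with the smallest root mean square distance to it in heart, each minus its own mean over the 10 arrays, for rapamycin mice, 25-month controls and 25-week controls from left to right. All 6 genes lie above 0 on the 6 older hearts and below 0 on the 4 hearts of 25-week controls.

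In brain, where Kcnk1 is abundant in neurons and astrocytes, its level did not pass the test in any comparison. It was 10.36, 10.47, 10.46 and 10.60 in rapamycin brains, 10.26 and 10.45 in 25-month controls and 10.55, 10.62, 10.52 and 10.44 in 25-week controls. The groups overlapped, and all 10 brains lay between 10.26 and 10.62. Rapamycin minus 25-month controls was 0.12 ± 0.10 (limma, adjusted p = 0.726), rapamycin minus 25-week controls -0.06 ± 0.08 (adjusted p = 0.815) and 25-month minus 25-week controls -0.17 ± 0.10 (adjusted p = 0.511). These standard errors are smaller than those in heart.

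No other member passed the test in brain either. The limma fit called 0 of 13 tested probes in each of the 3 comparisons, where 0.0276%, 1.09% and 0.85% of all brain probes were called for rapamycin minus 25-month controls, rapamycin minus 25-week controls and 25-month minus 25-week controls. At an unadjusted p under 0.05 there were 1, 2 and 0 of the 13 probes, against 1422, 1853 and 1827 of all 14473 brain probes. Kcnip2 probe 3 was 7.11, 6.85, 6.86 and 6.71 in rapamycin brains, 6.95 and 6.92 in 25-month controls and 6.88, 7.17, 7.19 and 7.26 in 25-week controls. Rapamycin minus 25-week controls was -0.25 ± 0.10 (limma, adjusted p = 0.336), and probe 2 gave -0.21 ± 0.10 (adjusted p = 0.362). Kcnd2, the dendritic A-type channel of neurons, was 7.48, 6.99, 7.01 and 6.57 in rapamycin brains, 7.17 and 7.04 in 25-month controls and 7.28, 7.37, 7.14 and 7.21 in 25-week controls. The rapamycin brains spread over both control groups, and the difference from 25-week controls was -0.24 ± 0.15 (limma, adjusted p = 0.538). Kcna5, near background in brain, was the probe with an unadjusted p under 0.05 for rapamycin minus 25-month controls, at 0.26 ± 0.12 (limma, adjusted p = 0.507). Over the 13 probes the brain differences lay between -0.27 and 0.26.

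Kcnk3 in brain was 6.40, 6.30, 6.61 and 6.52 in rapamycin mice, 6.15 and 6.29 in 25-month controls and 6.20, 6.24, 6.27 and 6.51 in 25-week controls. All rapamycin brains lay above both 25-month controls by a small margin, with a difference of 0.24 ± 0.12 that missed the threshold (limma, adjusted p = 0.518). The summed microglial list, with all 6 genes on the array detected, was 1411 to 1448 in rapamycin brains, 1365 to 1414 in 25-month controls and 880.3 to 1057 in 25-week controls. The neuronal sums were 19200 to 22650, 18020 to 20380 and 19200 to 23080 in the same order, with Gad2, Nefl and Snap25 not detected.

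In kidney, Kcnk1 lay above the 25-week controls in every older mouse, but whether its difference between the control ages passed the test depended on which arrays entered the fit and how they were weighted. It was 9.98, 9.67, 10.19 and 9.64 in rapamycin kidneys, 10.58 and 9.99 in 25-month controls and 9.58, 9.36, 9.62 and 9.49 in 25-week controls. Each of the 6 older kidneys lay above all 4 of the 25-week controls, the lowest of them only just. The rapamycin kidneys overlapped the 25-month controls. The share of all kidney probes that separate in this way was not counted, so the separation is only described. With all 10 arrays weighted equally, no difference passed: 25-month minus 25-week controls was 0.77 ± 0.22 (limma, adjusted p = 0.387), rapamycin minus 25-week controls 0.36 ± 0.18 (adjusted p = 0.409) and rapamycin minus 25-month controls -0.42 ± 0.22 (adjusted p = 0.825). Without the kidney of rapamycin mouse 2, 25-month minus 25-week controls was 0.77 ± 0.18 and passed (limma, adjusted p = 0.0246), a 1.70-fold rise. On those 9 arrays, rapamycin minus 25-week controls was 0.42 ± 0.16 (adjusted p = 0.124) and rapamycin minus 25-month controls -0.35 ± 0.19 (adjusted p = 0.496). With all 10 arrays and array weights, 25-month minus 25-week controls was 0.78 (limma, adjusted p = 0.0132) and rapamycin minus 25-week controls 0.49 (adjusted p = 0.0289), and both passed. With only the 2 control groups in the fit, 25-month minus 25-week controls was 0.77 and passed as well (adjusted p = 0.0199). The value rests on 2 older controls: without mouse 1 of them it was 0.48, and without mouse 2 it was 1.07. In the same mouse 1 of the 25-month controls, Kcnk1 was also the highest of all hearts.

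The members called in kidney numbered 0 of 5 in each comparison with all arrays, where 0%, 0.369% and 0.0942% of all probes were called for rapamycin minus 25-month controls, rapamycin minus 25-week controls and 25-month minus 25-week controls. At an unadjusted p under 0.05 the limma fit had 0, 0 and 1 of them, against 418, 1819 and 875 of all 13805 probes. With 9 arrays, 0, 0 and 1 of 5 were called, against 0%, 8.47% and 9.63% of all probes, the call being Kcnk1. On those arrays the unadjusted limma p of Kcnk1 was 0.0951 for rapamycin minus 25-month controls and 0.0233 for rapamycin minus 25-week controls. For rapamycin minus 25-month controls, 418 probes of all had an unadjusted p under 0.05 with 10 arrays and 1608 with 9. Kcnq1 probe 2 was 5.74, 4.79, 5.96 and 6.10 in rapamycin kidneys, 6.10 and 6.15 in 25-month controls and 5.81, 6.06, 6.39 and 5.97 in 25-week controls. Its lowest value was that of rapamycin mouse 2, and rapamycin minus 25-month controls was -0.48 ± 0.33 with that array (limma, adjusted p = 0.825) and -0.20 ± 0.17 without it (adjusted p = 0.661). Kcnj2 was 4.96, 6.03, 4.83 and 4.79 in rapamycin kidneys, 5.15 and 4.74 in 25-month controls and 5.05, 4.89, 4.97 and 5.07 in 25-week controls, again with mouse 2 apart. Kcnk3 and Kcnh2 probe 3 stood near background, detected on 4 and 3 of 10 kidneys. Their differences did not pass, with 10 arrays or with 9.

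Sums of kidney marker lists moved between the groups as well. For the thick limb and distal tubule, where 6 of 7 genes were detected and Calb1 was not, the sums were 15080 in the kidney of rapamycin mouse 2 and 34660 to 50200 in the other 3 rapamycin kidneys, 60360 to 62720 in 25-month controls and 33880 to 39700 in 25-week controls. For the collecting duct, with 7 of 8 detected and Avpr2 not, they were 1933 in rapamycin mouse 2, 2252 to 2552 in the other 3 rapamycin kidneys, 2788 to 3086 in 25-month controls and 2214 to 2500 in 25-week controls. Macrophage sums were 1294 to 1994 in rapamycin kidneys, 1431 to 2070 in 25-month controls and 397.5 to 617.6 in 25-week controls, with all 5 genes on the array detected. The sums of the 25-month controls were thus highest in the distal lists, and both older groups had higher sums in the macrophage list. By probe, the median of 25-month minus 25-week controls was 0.77 for the thick limb and distal tubule list (13 probes). For the collecting duct list it was 0.03 (9 probes), so its higher sum does not stand for most of its probes. The part of these cells in the kidney Kcnk1 values was not tested.

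**Figure D4:**
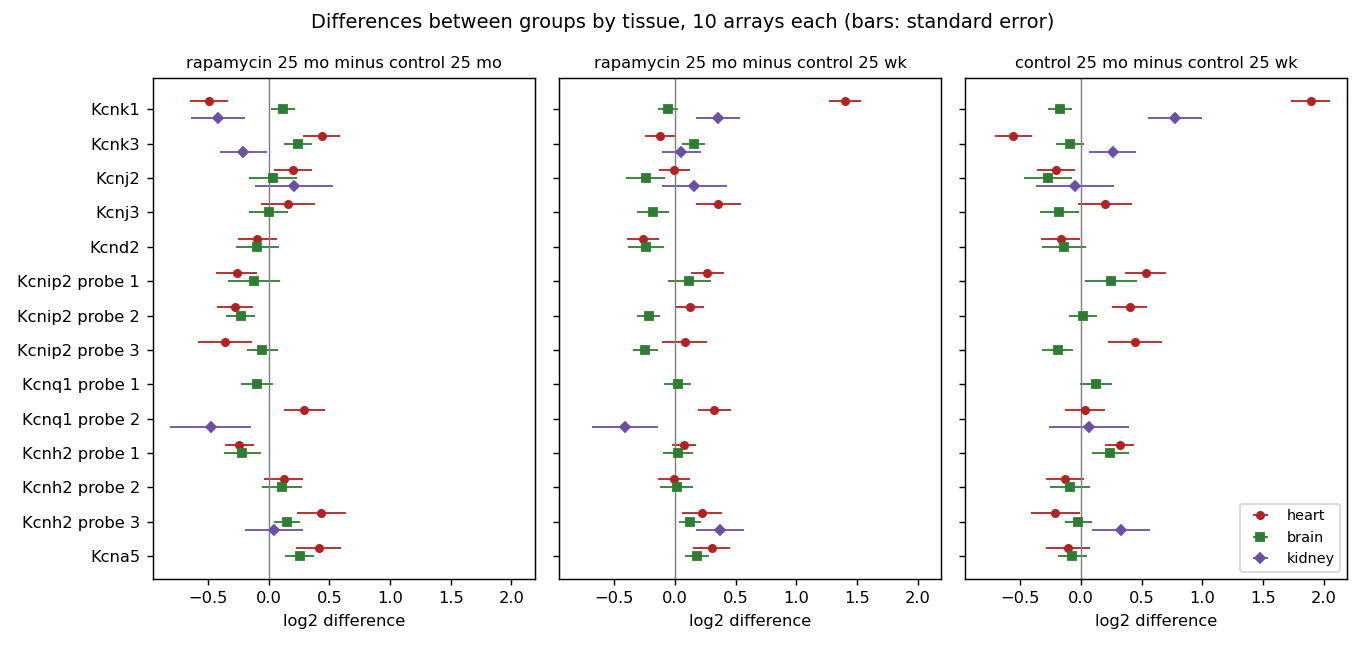
Log2 difference with its standard error for each tested member probe in heart (circles), brain (squares) and kidney (diamonds, 10 arrays), for rapamycin minus 25-month controls, rapamycin minus 25-week controls and 25-month minus 25-week controls from left to right. The Kcnk1 differences from 25-week controls in heart, at 1.40 and 1.89, lie apart from the rest, and the brain points stay between -0.27 and 0.26.

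The differences in brain and kidney were compared directly over all 30 arrays, normalised together. For 25-month minus 25-week controls, the Kcnk1 difference in brain minus that in kidney was -0.94 ± 0.23, which missed the threshold with all arrays (limma, adjusted p = 0.0705) and passed without the kidney of rapamycin mouse 2 at -0.94 ± 0.22 (adjusted p = 0.0147). For rapamycin minus 25-week controls it was -0.41 ± 0.19 (limma, adjusted p = 0.345) and for rapamycin minus 25-month controls 0.53 ± 0.23 (adjusted p = 0.776). With all arrays, 0 of 14 member probes were called in each of these comparisons by limma. The share of all 17062 probes called was 0% for rapamycin minus 25-month controls, 0.873% for rapamycin minus 25-week controls and 0.51% for 25-month minus 25-week controls. At an unadjusted p under 0.05 there were 2, 1 and 1 member probes. The share of all probes at that level was not counted, so nothing is read from these numbers. Heart was left out of this test because its values chose the members.

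The tissues were compared within the youngest mice. In the 25-week controls, limma over all 30 arrays called 10 of 14 member probes between brain and kidney, where 61.9% of all probes were called. Between heart and brain the same fit called 11 and between heart and kidney 13, where 61.4% and 51.7% of all probes were called. Nothing is read from the counts with heart, whose values chose the members. Of the calls, 9 were higher and 2 lower in heart than brain, 12 higher and 1 lower in heart than kidney, and 9 higher and 1 lower in brain than kidney.

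Kcnk1 had its lowest level in heart, at 5.11 ± 0.19, against 10.45 ± 0.08 in brain and 9.50 ± 0.11 in kidney (SD, n = 4 mice each). It was 40.5-fold lower in heart than in brain (log2 difference -5.34 ± 0.14) and 20.9-fold lower than in kidney (-4.39 ± 0.14), with 3 of the 4 hearts detected. Brain exceeded kidney by 0.95 ± 0.14 (limma, adjusted p = 7.67e-07). On the same scale the heart mean was 6.62 ± 0.22 in rapamycin mice (SD, n = 4) and 7.11 ± 0.18 in 25-month controls (n = 2), still below every brain and kidney. Without background correction the heart minus brain and heart minus kidney differences were -3.51 and -2.64.

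Kcnk3 was highest in heart, where Kcnk1 was lowest, while brain exceeded kidney for both. In 25-week controls it was 9.57 ± 0.10 in heart, against 6.01 ± 0.14 in brain and 4.90 ± 0.25 in kidney (SD, n = 4 each). Heart exceeded brain 11.8-fold (log2 difference 3.56 ± 0.13) and kidney 25.4-fold (4.66 ± 0.13). Only 1 of the 4 kidneys had it detected, so the kidney level is near background, and without background correction heart minus kidney was 2.76. Brain exceeded kidney by 1.11 ± 0.13 (limma, adjusted p = 2.33e-08), or by 0.36 without background correction (adjusted p = 7.6e-05).

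Kcnh2 and Kcna5 were likewise highest in heart. For Kcnh2 probe 3 the levels were 8.43 ± 0.07 in heart, 7.43 ± 0.17 in brain and 4.68 ± 0.09 in kidney, and for probe 1 they were 7.82 ± 0.05, 6.65 ± 0.23 and 4.31 ± 0.04 (SD, n = 4 each). Both probes gave the same order of tissues, with heart 2.00-fold and 2.25-fold above brain. Neither was detected in a kidney of this group, so the folds of heart over kidney are lower bounds, at least 11.3-fold and 7.41-fold. The bounds are set by the lowest value of any detected probe on each kidney array, or by the probe's own value where higher. Such values lie near background. Brain exceeded kidney at least 5.64-fold on probe 3 and 3.29-fold on probe 1 (limma, adjusted p = 4.36e-14 and 7.15e-13). Kcna5 was 6.33 ± 0.28 in heart, with no detection in brain or kidney of these mice, at least 2.91-fold higher than in brain and at least 2.63-fold higher than in kidney.

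Kcnq1 probe 2 was detected in all 4 hearts and all 4 kidneys of 25-week controls and in no brain. Its levels were 6.69 ± 0.22 in heart, 4.57 ± 0.15 in brain and 6.16 ± 0.24 in kidney (SD, n = 4 each). Heart was at least 3.74-fold higher than brain, and heart minus kidney was 0.53 ± 0.19. Brain lay below kidney, which was at least 2.60-fold higher (limma, adjusted p = 5.64e-08). Probe 1 of the same gene was detected in none of these hearts or kidneys.

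Kcnd2 was the member other than Kcnk1 that was lower in heart than in brain. Its levels were 5.85 ± 0.26 in heart and 6.96 ± 0.10 in brain, with no detection in kidney, and the heart minus brain difference was -1.11 ± 0.15. Brain exceeded kidney at least 4.08-fold (limma, adjusted p = 6.15e-14). Kcnip2 probe 3, its accessory subunit, was 7.43 ± 0.11 in heart and 6.84 ± 0.17 in brain (0.59 ± 0.16), and at least 5.63-fold higher in heart than in kidney. With median scaling the heart minus brain difference was 0.18. Brain exceeded kidney at least 3.74-fold for this probe (limma, adjusted p = 2.12e-12).

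The inward rectifiers were both higher in heart than in kidney. Kcnj2 was 6.22 ± 0.23 in heart, 5.12 ± 0.21 in brain and 5.07 ± 0.09 in kidney, so that heart exceeded brain 2.14-fold and kidney 2.22-fold, while brain minus kidney was 0.05 ± 0.20 (limma, adjusted p = 0.851). Kcnj3 was 6.49 ± 0.21 in heart and 6.11 ± 0.24 in brain and undetected in kidney, at least 2.94-fold higher in heart than kidney. Its heart minus brain difference of 0.38 ± 0.16 turned to -0.043 with median scaling.

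**Figure D5:**
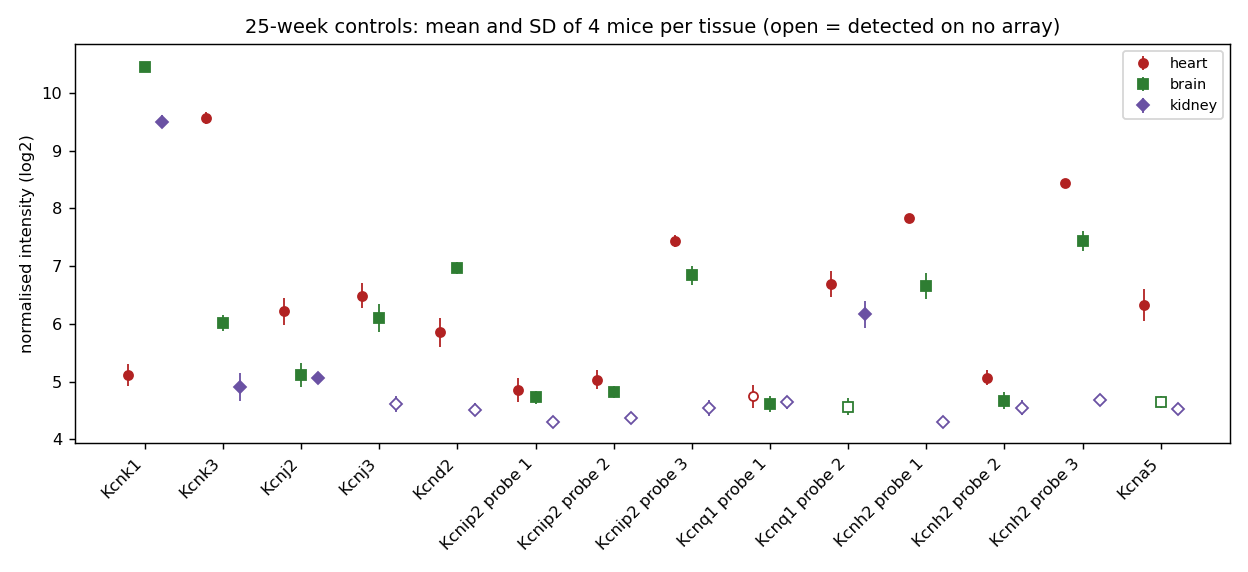
Mean and SD of log2 normalised intensity in heart (circles), brain (squares) and kidney (diamonds) of the 4 control mice aged 25 weeks, for all 14 member probes, with open symbols where no array detected the probe. Kcnk1 is lowest in heart and highest in brain, whereas Kcnk3 is highest in heart; levels of different probes are not comparable with each other.

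Among 91 other potassium channel genes listed by family, 76 were on the array. In heart 35 probes of 29 of these genes were tested. For rapamycin minus 25-week controls 1 was called higher and 0 lower, and for rapamycin minus 25-month and 25-month minus 25-week controls 0 were called by limma, with 0 and 8 at an unadjusted p under 0.05. Over all heart probes 0.944% were called for rapamycin minus 25-week controls, 0% for rapamycin minus 25-month controls and 0.624% for 25-month minus 25-week controls, so the counts of calls lay close to the array-wide rate. Beside the 0 and 8 stood 1598 and 1724 of all 13773 heart probes at an unadjusted p under 0.05. Median differences of the 35 probes were -0.07, -0.02 and 0.08 for rapamycin minus 25-month controls, rapamycin minus 25-week controls and 25-month minus 25-week controls. The called gene was Kcne4, an accessory subunit that restrains Kcnq1 channels, at 5.19 ± 0.14 in rapamycin hearts and 4.59 ± 0.16 in 25-week controls (SD, n = 4 each), a difference of 0.60 ± 0.12 (adjusted p = 0.0359). Among 18 tested genes of other cardiac ion handling, Cacna1g, a T-type calcium channel, was lower in 25-month than in 25-week control hearts. It was 4.68 ± 0.25 (SD, n = 2) against 5.51 ± 0.04 (n = 4), lower by 0.83 ± 0.15 (limma, adjusted p = 0.0297). The lower mean of Cacna1g, like that of Kcne4, lies near background, so the size of both differences is uncertain.

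In brain 59 probes of 47 of the other potassium channel genes were tested, and 1 was called, for rapamycin minus 25-week controls, where 1.09% of all brain probes were called. Kcnk6, a two-pore-domain relative of Kcnk1, was 6.49 ± 0.16 in rapamycin brains and 6.04 ± 0.07 in 25-week controls (SD, n = 4 each), with a difference of 0.45 ± 0.10 (limma, adjusted p = 0.0493). For 25-month minus 25-week controls the smallest p belonged to Kcnj12, an inward rectifier, which was 5.56 ± 0.02 and 6.13 ± 0.23 in these groups (-0.58 ± 0.13, adjusted p = 0.0598). In that comparison and in rapamycin minus 25-month controls, limma called 0 of 59, with 8 and 7 at an unadjusted p under 0.05, where 0.85% and 0.0276% of all probes were called. Of all 14473 brain probes, 1827 and 1422 had an unadjusted p under 0.05.

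In kidney limma called none of 33 probes of 24 such genes with all arrays, with 4, 1 and 5 at an unadjusted p under 0.05 for rapamycin minus 25-month controls, rapamycin minus 25-week controls and 25-month minus 25-week controls. Of all 13805 probes, 418, 1819 and 875 were under that level. On the 9 arrays without rapamycin mouse 2, 0, 1 and 4 of 32 were called, with 8, 3 and 9 at an unadjusted p under 0.05. Of all 13651 probes on these arrays, 1608, 3577 and 3525 were under that level. Over all probes 0%, 8.47% and 9.63% were called on these arrays, so the counts of calls do not set these genes apart. Kcnj1, the secretory potassium channel of the thick limb and collecting duct known as ROMK, was higher in 25-month than in 25-week controls on both its probes, by 0.77 ± 0.12 (adjusted p = 0.00496) and 1.01 ± 0.20 (adjusted p = 0.013). Its brighter probe stood at 6.67 ± 0.13 in the 3 rapamycin kidneys, 7.47 ± 0.02 in the 25-month controls and 6.70 ± 0.14 in the 25-week controls, and rapamycin minus 25-month controls was -0.80 ± 0.13 (limma, adjusted p = 0.171). Lrrc52, an accessory subunit of large-conductance channels, rose by 0.84 ± 0.14 (adjusted p = 0.00718) in 25-month over 25-week controls. Kcnk5, named after its values were seen because it was the remaining call, fell by 0.48 ± 0.14 (adjusted p = 0.0474). Kcnk6 was higher by 0.69 ± 0.12 in rapamycin kidneys than in 25-week controls, which differ in age as well as treatment (limma, adjusted p = 0.00704). The thick limb sums given above were highest in the same 25-month controls as Kcnj1, and their part in it was not tested.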

How the data were processed

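Heart, brain and kidney of 10 mice were measured on 30 Illumina arrays. The deposited non-normalized table holds, per the file headers, a linear signal intensity per probe and array and a detection p-value against the negative control beads. A second matrix by the authors holds background-subtracted intensity. GenomeStudio 2011.1 appears in the submitters' processing notes, and no further step is given in the sources used here. Of 25697 probes, 23978 carried 1 gene symbol, 0 several and 1719 none in the platform annotation.

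Within each tissue, intensities were corrected and quantile-normalised with neqc (offset 16, background inferred from the detection p-values; limma 3.58.1, R 4.3.3), and probes detected (p-value under 0.05) on 2 or more of 10 arrays were fitted with 1 mean per group and moderated by limma. P-values were adjusted by Benjamini-Hochberg over all tested probes of a tissue. Tissue levels and differences between tissues used all 30 arrays normalised together. Figures were drawn with matplotlib 3.10.9 in Python 3.11.15. Fits were also run on simulated data with independent normal noise for each probe. These data hold no outlying array, so they say nothing of the kidney array of rapamycin mouse 2. The number of arrays limits the precision.

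Members and lists were chosen with earlier results of these data known. Named were all member probes, per tissue and comparison up to 4 other potassium or ion handling genes past the test (2 with the smallest p where none passed, of which only part is given), the 5 genes most like Kcnk1 in heart, defining markers and C4b. Alternatives covered background correction, scaling, filters, the authors' matrix, array weights, a replicate block and leaving out each mouse. By the mouse labels, mice of different groups that share a replicate number are different animals, so the numbers pair no samples. Their deviations from the group means correlated at -0.08 to 0.05 in heart, -0.17 to 0.15 in brain and -0.24 to 0.31 in kidney. Tissues of 1 mouse are paired by the mouse label, yet correlated at only -0.05 to 0.10 in 25-week controls. These correlations therefore cannot show whether samples are paired.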

Additional observations from a re-analysis of the deposited data

Results flagged for a closer look

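Among 62 groups of 4 arrays and member probes, 5 had 1 array far from the other 3, where chance gives about 1 in 20 groups. Kcnh2 probe 2, close to background, supplied 3 of them, at 4.66 in the heart of rapamycin mouse 3, 5.07 in the heart of 25-week control mouse 4 and 5.22 in the brain of rapamycin mouse 2. The kidney of rapamycin mouse 2, the array with the fewest detected probes, supplied the others, at 6.03 for Kcnj2 and 5.54 for Kcnh2 probe 3.

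For Kcnq1 probe 2, rapamycin minus 25-month controls had opposite directions in heart and kidney, at 0.29 and -0.48. Every rapamycin heart lay above and every rapamycin kidney below both 25-month controls, the highest rapamycin kidney only just. Of all heart probes, 19.8% did not overlap between these groups, and the share in kidney was not counted. Rapamycin mouse 2 had the lowest kidney value (4.79), and without it the kidney difference was -0.20. The difference between the tissues was not tested.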

How the results depend on the processing

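For each comparison, the number of member probes called was recomputed under every alternative. It moved by over 1.5 times in 6 cases and by less in 210. In kidney, 25-month minus 25-week controls gave 1 call, Kcnk1, with array weights (0.78), with only the groups compared (0.77) and without the kidney of rapamycin mouse 2 (0.77), so that leaving out each mouse gave 0 to 1. Rapamycin minus 25-week controls in kidney gave 1 call with array weights, also Kcnk1 (0.49, limma, adjusted p = 0.0289). The brain minus kidney difference of 25-month minus 25-week controls gave 1 without that kidney array. In heart, the count for 25-month minus 25-week controls moved when 25-month control mouse 2 was left out, which left 1 mouse in that group. Kcnk3 was then -0.85. Heart values chose these genes, so calls that involve heart, here and between tissues, are a description. Single values of Kcnk1 and of called probes kept their direction and their side of the threshold 475 times, gained a call 5 times, lost it 14 times and reversed 1 time. The reversal was Kcnj3, heart minus brain, at -0.043 with median scaling, and the cause was not tested. Kcnk1 in heart ranged from 0.49 to 1.52 for rapamycin minus 25-week controls and from 0.73 to 2.03 for 25-month minus 25-week controls, the lowest without background correction. With the replicate block, Kcnk1 in heart was 1.84 for 25-month minus 25-week controls, and with the mouse as replicate block the tissue comparisons gave 11, 13 and 10 calls; the block changed no call. Arrays give no counting depth, and probes near background, such as Kcnh2 probe 2 and Kcnip2 probes 1 and 2, limit what can be read.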
